A study of Rattus norvegicus with 20 samples.

Results

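Liver messenger RNA was compared between 5 rats fed a diet with conventional soybean and 5 rats fed a casein diet, which are 10 of the 20 arrays of the series. The arrays were chosen by title. Every rat was a male Sprague-Dawley rat obtained at 4 weeks of age, kept on a non-purified chow for 5 days and then on its diet for 21 days, with food and water freely available. The casein diet held 200 g per kg of casein, the main protein of milk. In the conventional soybean diet, protein came in equal parts from casein and the cultivar Fukuyutaka, so both diets compared here contained casein. The remaining 10 arrays came from rats fed casein with a cultivar rich in isoflavones, either in 3 parts to 1 or in equal parts (here the 3:1 and 1:1 high-isoflavone diets). The diets had 7 rats each, except the 1:1 high-isoflavone diet with 8, and 5 rats with an average food intake per diet were put on arrays, so rats at the ends of the range of intake are not in these data. Time of day at sampling and fasting were not given in the sources used here.

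Liver cells take up the amino acids, sugars and fats of a meal from the portal blood. The organ breaks down amino acids, conjugates foreign compounds for excretion, secretes plasma proteins and stores metals bound to metallothionein, and the messenger RNAs for these tasks respond to diet and to hormones. Soybean protein holds less methionine than casein, and soybeans also bring isoflavones, plant compounds that bind estrogen receptors. The series asks how soybeans and their isoflavones alter messenger RNAs of the liver, and described here are genes and functions beyond the making of fat and sterols.

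The array measures the 3′ end of transcripts with probe sets, and all values are log2 signals from 5 separate rats per diet (n = 5), so a difference of 1 is a 2-fold difference. Which dim genes lie above background is not known, so their folds are ratios of signals that may include background. Of 15 hepatocyte markers, 14 lay above the array's median on all 10 arrays and 0 below it, and 13 of 16 periportal genes did so. Of 8 bile duct markers 2, of 17 lymphocyte markers 7 and of 12 neutrophil and mast cell markers 2 lay above the median on all 10 arrays. Casein replicate 5 had a floor of the signal at 0.45, against -1.02 or lower on the other arrays of the comparison, and replicate 1 of the 3:1 diet had a similar floor of 0.47. Results that change without these 2 higher-floor arrays are given with their values. The array medians lay between 2.434 and 2.491 for casein rats and between 2.51 and 2.562 for soybean rats, without overlap. In bulk tissue, fewer cells of a type and less RNA per cell cannot be told apart.

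With limma's test over all 20 arrays, 453 of 27702 probe sets differed at an adjusted p under 0.05 (1.64%). Of these 281 rose (1.01%) and 172 fell (0.621%), and 4665 had an unadjusted p under 0.05. With 1 probe set per gene, 2319 of 13468 genes had an unadjusted p under 0.05, and 251 passed (1.86%), 145 up (1.08%) and 106 down (0.787%). Genes of fat synthesis and of sterol synthesis or uptake made up 18 of them, out of 48 measured, which left 233 genes, 144 higher and 89 lower. Of these, 18 rose and 12 fell by more than 2-fold. The diets' rats were fully separated in 669 genes (4.97%) and 1279 probe sets (4.62%), and this held for 116 of the 144 rises and 74 of the 89 falls. The balance of directions changed with the scaling of the arrays: 62.0% of the called probe sets were higher as deposited, 30.6% after each array was centred on its median (148 up, 335 down), 25.1% after centring and scaling (158 up, 472 down) and 35.4% after quantile normalization (194 up, 354 down). The median of all probe sets was 0.059 higher on soybean as deposited, and 7875 of the 13468 genes (58.5%) lay above 0.

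Genes were called among dim and bright transcripts, but more often among the bright ones. The median signal of the 144 genes that rose was 3.37 and that of the 89 that fell was 3.73, against 2.81 for all genes. Of the 3367 dimmest genes 16 rose and 7 fell, and of the 3367 brightest, fat and sterol genes included, 62 rose and 60 fell. Outside fat and sterol genes, 47 genes were called with the same sign as deposited, after quantile normalization, after centring and scaling, without the 2 higher-floor arrays and in each of 20 fits that left out a single array. Of these 47 genes 27 rose and 20 fell, and they are called stable below. The rats of both diets did not overlap in 26 of these rises and 19 of these falls.

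**Figure D1:**
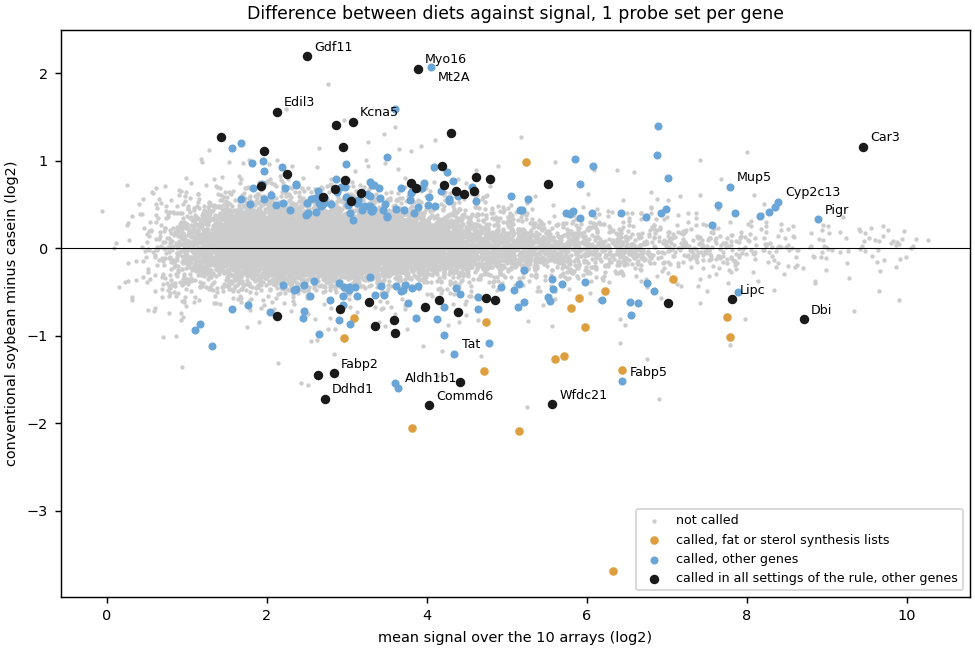
Each point is 1 gene, with the mean log2 signal over the 10 arrays on the horizontal axis and the log2 difference, conventional soybean minus casein, on the vertical axis. Called genes of the fat and sterol lists are orange, other called genes blue and stable genes black, which reach from Gdf11 at 2.20 to Commd6 at -1.79 and, among bright transcripts, include Car3, Dbi and Lipc.

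The stable rises included secreted signals and cell surface receptors. Gdf11, a TGF-beta type growth factor, had signals of 2.32, 1.16, 1.53, 1.29 and 0.73 in casein replicates 1 to 5 and 3.28, 3.60, 3.37, 4.30 and 3.46 in the soybean rats. Every soybean rat lay above every casein rat, and the difference was 2.20 (SE 0.362, adjusted p = 0.00406). Whether the dim casein signals of Gdf11 lay above background is not known. Edil3, a secreted protein that binds integrins, was likewise dim on casein, at 1.67, 1.6, 1.02, 1.29 and 1.14, and read 2.66, 3.01, 2.56, 3.41 and 2.90 on soybean. It rose by 1.56 (SE 0.287, adjusted p = 0.00809), again without overlap. In the list of 38 growth factors and secreted signals, these were the 2 that rose (1.08% of all genes rose) while 0 fell and 36 did not pass. The list's median was 0.047 against 0.045 for all genes. Under each of the other scalings 2 rose and 2 fell, and the median turned to -0.023 after centring, -0.031 after centring and scaling and -0.027 after quantile normalization. Of all 13468 genes 72, 68 and 96 rose under these scalings and 201, 287 and 204 fell. Calcrl, the receptor part shared by calcitonin gene-related peptide and adrenomedullin, was at 4.49, 4.46, 4.45, 4.27 and 4.33 on casein and 5.00, 5.29, 5.42, 5.29 and 4.96 on soybean. Its rats were separated by a gap larger than the spread within the casein group, and it rose 1.73-fold (SE 0.101, adjusted p = 0.000879), and a second probe set was at 0.30 (adjusted p = 0.3). Fzd5, a receptor for Wnt proteins, was at 3.34 to 3.61 on casein and 4.00 to 4.51 on soybean and rose 1.61-fold (SE 0.121, adjusted p = 0.00701), while a dimmer probe set of the gene differed by -0.22 (adjusted p = 0.668).

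Channels and carriers of the plasma membrane were also among the stable rises. Kcna5, a voltage-gated potassium channel, read 2.71, 2.40, 2.09, 2.19 and 2.37 on casein and 3.38, 3.88, 4.07, 4.59 and 3.08 on soybean. The groups did not overlap, and the soybean rats varied more among themselves than the casein rats did. The rise was 2.73-fold (SE 0.235, adjusted p = 0.00356). Cacna2d3, an auxiliary subunit of voltage-gated calcium channels, was at 3.49 to 4.09 on casein and 4.38 to 4.79 on soybean, a 1.66-fold rise (SE 0.113, adjusted p = 0.00302). Slc26a2, which carries sulfate into cells, was dim on casein, at 0.87, 0.10, 0.90, 1.03 and 1.01, and read 2.0, 1.49, 2.69, 1.68 and 2.44 on soybean. Casein replicate 2 lay far below the other casein rats, and all soybean rats lay above all casein rats, a difference of 1.28 (SE 0.25, adjusted p = 0.0139). Whether its casein signals lay above background is not known, so no fold is given. Of 43 ion channels and pumps 1 rose, 0 fell, 42 did not pass and 30 lay above 0, with a median of 0.092 that turned to -0.012 after centring and scaling. Of all genes 1.08% rose and 58.5% lay above 0.

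The stable rises also held enzymes. Car3, a cytosolic carbonic anhydrase that is abundant in the liver of male rats, had signals of 9.31, 8.83, 8.86, 8.78 and 8.57 on casein and 9.89, 10.15, 9.91, 10.27 and 9.95 on soybean. Each soybean rat exceeded each casein rat, and Car3 rose 2.24-fold (SE 0.165, adjusted p = 0.00154), with a second probe set at 1.69 (adjusted p = 0.00174). Ddah1 breaks down asymmetric dimethylarginine, an inhibitor of nitric oxide synthase, and read 4.18, 4.22, 4.30, 4.22 and 4.10 on casein and 5.32, 4.84, 4.95, 4.86 and 5.11 on soybean. The casein rats lay close together and below all soybean rats, and Ddah1 rose 1.76-fold (SE 0.114, adjusted p = 0.00154). Nat8, an acetyltransferase of the mercapturic acid pathway by which glutathione conjugates are excreted, read 2.43, 1.71, 2.12, 2.28 and 2.20 on casein and 4.47, 2.67, 3.79, 3.71 and 3.18 on soybean. It rose 2.67-fold (SE 0.272, adjusted p = 0.012) without overlap. Sat2, an acetyltransferase related to the enzyme that acetylates spermidine and spermine, was at 1.54 to 2.15 on casein and 2.50 to 2.86 on soybean, a 1.8-fold rise (SE 0.141, adjusted p = 0.00419).

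Among the other stable rises was Myo16, an unconventional myosin, which read 3.56, 3.19, 2.63, 2.85 and 2.07 on casein and 4.71, 4.85, 5.45, 5.51 and 4.03 on soybean. It rose 4.15-fold (SE 0.324, adjusted p = 0.00317) without overlap, but a second probe set of Myo16, with a mean signal of 1.80, differed by -0.11 (adjusted p = 0.765). Carmil1, a regulator of actin capping, rose 1.92-fold (SE 0.147, adjusted p = 0.00317), and its other probe sets were at 0.29 and 0.05 (adjusted p = 0.597 and 0.913). Cep128, a protein of the centriole, rose 2.23-fold (SE 0.221, adjusted p = 0.0115) and Cplane1, needed for building cilia, 1.72-fold (SE 0.136, adjusted p = 0.00701). Among 34 genes of the cytoskeleton and motors, 1 rose, 3 fell and 30 did not pass (of all genes 1.08% rose and 0.787% fell). The falls were Myh9, the heavy chain of a non-muscle myosin, Krt8, a keratin of hepatocytes, and Dync1h1, the heavy chain of cytoplasmic dynein. Myh9 fell by 0.59 (SE 0.107, adjusted p = 0.00804) and was stable, with a dimmer probe set at -0.29 (adjusted p = 0.472), Krt8 fell by 0.47 (SE 0.116, adjusted p = 0.0444) and Dync1h1 fell by 0.44 (SE 0.111, adjusted p = 0.0489). The calls of Krt8 and Dync1h1 were lost in 12 and 18 of the 20 fits that each left out 1 array (adjusted p up to 0.104 and 0.111) and without both higher-floor arrays (0.0934 and 0.121).

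The other stable rises that were named had no common role. Sez6, a membrane protein known from neurons, was at 2.78 to 4.36 on casein and 4.43 to 5.25 on soybean and rose 2.5-fold (SE 0.239, adjusted p = 0.00784). Hepacam, an adhesion protein of the immunoglobulin family, rose 1.68-fold (SE 0.137, adjusted p = 0.00828) and Greb1l, a relative of an estrogen-regulated gene, 1.67-fold (SE 0.131, adjusted p = 0.00722), and a second probe set of each was at 0.36 and 0.09 (adjusted p = 0.215 and 0.793). Snapc4 is a subunit of the complex that starts transcription of small nuclear RNAs. It rose 1.64-fold (SE 0.142, adjusted p = 0.0153), with a dimmer probe set at -0.24 (adjusted p = 0.677). The uncharacterized locus LOC102552808, dim on casein, rose by 1.11 (SE 0.194, adjusted p = 0.00669), and a second probe set was at -0.02 (adjusted p = 0.981). The 7 stable rises outside the naming rule, listed here after their values were seen, were Ccl19, a chemokine of T cell zones, at 0.54, Il5, an eosinophil cytokine, at 0.66, Tbxa2r, the thromboxane receptor, at 0.59, Cryaa, a small heat shock protein of the lens, at 0.68, and Dstl1, Plac9 and Sh3d21 at 0.63, 0.63 and 0.66. The single stable rise with overlapping rats was among these 7. Whether their signals lay above background is not known.

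**Figure D2:**
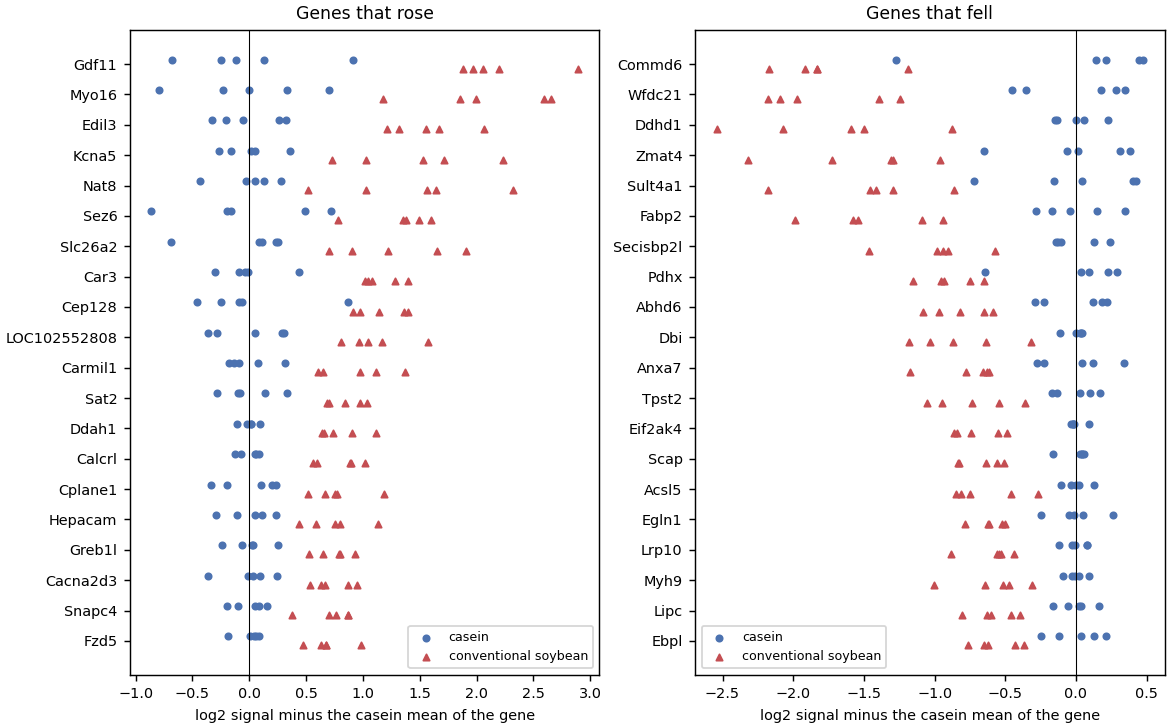
The 20 largest stable rises (left) and 20 largest stable falls (right), 1 row per gene, with the log2 signal of each rat minus the gene's casein mean on the horizontal axis; circles are casein rats and triangles conventional soybean rats. Soybean rats lie on 1 side of all casein rats for every gene drawn except Commd6, where casein replicate 1 at 3.65 lies below a soybean rat at 3.74.

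Proteins that bind or activate fatty acids were among the stable falls. Fabp2, the intestinal type of fatty acid binding protein, read 3.89, 3.27, 3.51, 3.38 and 3.70 on casein and 1.56, 2.46, 1.97, 2.61 and 2.0 on soybean. All soybean rats lay below all casein rats, and Fabp2 fell by 1.43 (SE 0.181, adjusted p = 0.000879). Dbi, the acyl-CoA binding protein and 1 of the brightest genes called, read 9.01, 9.16, 9.16, 9.15 and 9.12 on casein and 8.25, 8.48, 7.94, 8.80 and 8.09 on soybean. The casein rats were within a narrow range, the soybean rats were scattered below it, and Dbi fell by 0.81 (SE 0.163, adjusted p = 0.0162). Acsl5, an acyl-CoA synthetase, read 7.22, 7.45, 7.33, 7.35 and 7.29 on casein and 6.51, 7.06, 6.48, 6.87 and 6.58 on soybean and fell by 0.63 (SE 0.119, adjusted p = 0.0105), with a dimmer probe set at -0.64 (adjusted p = 0.11). Fabp5, the epidermal type of fatty acid binding protein, read 6.71, 7.61, 6.85, 7.61 and 7.23 on casein and 5.41, 6.62, 5.45, 5.68 and 5.27 on soybean. Its highest soybean rat came close to its lowest casein rat, and Fabp5 fell by 1.52 (SE 0.32, adjusted p = 0.0208). The call of Fabp5 was lost in 4 of the 20 fits that each left out 1 array (adjusted p up to 0.0569) and without both higher-floor arrays (0.0646). These were the 4 falls among 15 genes of fatty acid binding and uptake, of which 0 rose, 11 did not pass and 12 lay below 0, with a median of -0.207 against 0.045 for all genes. Of all 13468 genes 0.787% fell and 5593 lay below 0. Fabp1, the liver type, differed by -0.25 (adjusted p = 0.234) and Acsl1, another acyl-CoA synthetase, by -0.09 (adjusted p = 0.526).

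Another stable fall was that of Ddhd1, a phospholipase that acts on phosphatidic acid, which read 3.44, 3.64, 3.58, 3.45 and 3.81 on casein and 2.08, 2.0, 1.04, 2.71 and 1.51 on soybean. Soybean replicate 3 was the lowest, no rats overlapped, and the fall was 1.72 (SE 0.232, adjusted p = 0.00126). Lipc, the hepatic lipase that hydrolyses lipids of circulating lipoproteins, read 7.94, 8.14, 8.27, 8.13 and 8.05 on casein and 7.51, 7.71, 7.30, 7.48 and 7.65 on soybean. It fell by 0.58 (SE 0.109, adjusted p = 0.0102) without overlap. Abhd6, a monoacylglycerol lipase, was at 3.71 to 4.22 on casein and 2.92 to 3.41 on soybean and fell by 0.82 (SE 0.151, adjusted p = 0.00809), with a dimmer probe set at -1.33 (adjusted p = 0.115). Among 23 genes of lipoproteins and lipases Lipc was the single fall, 22 did not pass, and the median was -0.158. Of all 13468 genes 106 fell as deposited and 287 after centring and scaling, where 4 of these 23 fell. Of 29 genes that oxidize fatty acids or make ketone bodies, Cyp4a1, a fatty acid omega-hydroxylase, fell by 0.77 (SE 0.185, adjusted p = 0.0388) while 28 did not pass, and the list's median was -0.148. After centring and scaling 5 of these 29 fell. The call of Cyp4a1 was lost in 7 of the 20 fits that each left out 1 array (adjusted p up to 0.099) and without both higher-floor arrays (0.108).

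Eif2ak4, another stable fall, encodes GCN2, the kinase that is switched on by uncharged transfer RNA when an amino acid is short, and read 3.25, 3.24, 3.25, 3.35 and 3.23 on casein and 2.52, 2.78, 2.42, 2.71 and 2.40 on soybean. The casein rats were nearly equal, each soybean rat was lower, and Eif2ak4 fell by 0.70 (SE 0.124, adjusted p = 0.00722). Scap, the sterol-sensing escort of the SREBP transcription factors, read 4.15, 4.34, 4.35, 4.35 and 4.37 on casein and 3.68, 3.80, 3.48, 3.48 and 3.75 on soybean. It fell by 0.67 (SE 0.0964, adjusted p = 0.00166) without overlap, while a second probe set near the floor, with a mean signal of 0.58, differed by 1.03 (adjusted p = 0.143). Egln1, the prolyl hydroxylase that marks hypoxia-inducible factors for destruction in the presence of oxygen, read 3.33, 3.56, 3.52, 3.62 and 3.84 on casein and 2.96, 2.95, 3.05, 2.79 and 3.07 on soybean. It fell by 0.61 (SE 0.111, adjusted p = 0.00795) without overlap, and another probe set differed by 0.07 (adjusted p = 0.784).

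The remaining named stable falls had varied roles. Commd6, a small COMM domain protein, read 3.65, 5.40, 5.14, 5.37 and 5.07 on casein and 2.75, 3.09, 3.09, 3.74 and 3.01 on soybean. Casein replicate 1 lay among the soybean rats and the other casein rats well above, and Commd6 fell by 1.79 (SE 0.289, adjusted p = 0.00342). Wfdc21, a secreted protein with a whey acidic protein domain, read 6.0, 6.80, 6.10, 6.63 and 6.74 on casein and 4.36, 4.48, 5.06, 5.21 and 4.28 on soybean and fell by 1.78 (SE 0.252, adjusted p = 0.00154). Zmat4, a zinc finger protein, fell by 1.52 (SE 0.276, adjusted p = 0.00784), with a second probe set at 0.38 (adjusted p = 0.625). Pdhx, a subunit of the pyruvate dehydrogenase complex, was at 3.15 to 4.09 on casein and 2.64 to 3.15 on soybean, and fell by 0.89 (SE 0.164, adjusted p = 0.00828). Its lowest casein rat, replicate 1, was just above the highest soybean rat. Tpst2, which adds sulfate to tyrosines of secreted proteins, fell by 0.73 (SE 0.121, adjusted p = 0.00441). Secisbp2l, a relative of the protein that reads selenocysteine codons, fell by 0.97 (SE 0.177, adjusted p = 0.00795), and Anxa7, an annexin that binds membranes when calcium rises, by 0.77 (SE 0.141, adjusted p = 0.00809). Their second probe sets were at -0.80 and -0.33 (adjusted p = 0.0844 and 0.262). The mean difference between diets was smaller for Lrp10, a member of the LDL receptor family, which fell by 0.59 (SE 0.0951, adjusted p = 0.00342), and for Ebpl, which resembles a sterol isomerase and fell by 0.57 (SE 0.104, adjusted p = 0.00809).

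Among the brightest genes called, beside Car3, Dbi and others given above, was Mup5, a major urinary protein that the male liver secretes, which read 7.5, 7.38, 7.49, 7.51 and 7.29 on casein and 7.88, 8.22, 8.15, 8.58 and 7.85 on soybean. It rose 1.63-fold (SE 0.135, adjusted p = 0.012) without overlap, and its other probe sets were at 1.03 and 0.77 (adjusted p = 0.0425 and 0.0574). No omission of a single array ended that call, but it ended without the 2 higher-floor arrays (adjusted p = 0.053) and after centring and scaling (0.0666). The probe sets of Mup5 may also bind transcripts of related genes, which was not tested. Pigr, the receptor that carries immunoglobulin A into bile, rose 1.26-fold (SE 0.068, adjusted p = 0.0171), from 8.68 to 8.79 to 8.96 to 9.18. Ang, the ribonuclease angiogenin, rose 1.39-fold (SE 0.09, adjusted p = 0.0105), which was no longer called after centring and scaling (adjusted p = 0.107). Phyh, which starts the breakdown of phytanic acid in peroxisomes, rose 1.34-fold (SE 0.102, adjusted p = 0.0388), and Pgrmc1, a heme-binding membrane protein, 1.41-fold (SE 0.121, adjusted p = 0.04). Tram1, part of the channel through which secreted proteins enter the endoplasmic reticulum, rose 1.2-fold (SE 0.0633, adjusted p = 0.0357). A second probe set of Phyh was at 0.41 (adjusted p = 0.0624) and a dim one of Tram1 at 0.18 (0.691). Baat, which joins bile acids to taurine or glycine, rose 1.33-fold (SE 0.102, adjusted p = 0.0454) and was the single rise among 22 genes of bile acids and sterol export, of which 21 did not pass. The calls of Pigr, Phyh, Pgrmc1, Tram1 and Baat were lost in 2, 8, 8, 9 and 13 of the 20 fits that each left out 1 array (adjusted p up to 0.0557, 0.0985, 0.11, 0.0951 and 0.101) and without both higher-floor arrays (0.0633, 0.105, 0.116, 0.105 and 0.105). Calls of Pigr, Phyh, Pgrmc1, Tram1 and Baat also ended after centring (adjusted p = 0.085, 0.0969, 0.0888, 0.14 and 0.115), after centring and scaling (0.489, 0.285, 0.238, 0.656 and 0.352), and that of Phyh after quantile normalization (0.0514). Pigr lost its call without casein replicate 5 or conventional soybean replicate 5.

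The bright falls included enzymes of electron transfer, vitamin K and glycolysis. Cyb5r3, the reductase of cytochrome b5, was at 6.42 to 7.17 on casein and 5.95 to 6.54 on soybean and fell by 0.62 (SE 0.141, adjusted p = 0.0294). Cyb5a, cytochrome b5 itself, went the other way and rose 1.3-fold (SE 0.0959, adjusted p = 0.0492). Mtarc1, an enzyme of the mitochondrial outer membrane that reduces N-hydroxylated compounds, fell by 0.49 (SE 0.115, adjusted p = 0.0353), with a second probe set at -0.50 (adjusted p = 0.0364). Vkorc1, which regenerates vitamin K for clotting factors, fell by 0.49 (SE 0.0986, adjusted p = 0.016) without overlap, a call that no omission of a single array ended and that ended without the 2 higher-floor arrays (adjusted p = 0.053). Pklr, the pyruvate kinase of liver, read 6.49, 7.08, 6.86, 6.82 and 6.99 on casein and 6.50, 6.42, 5.79, 6.22 and 6.23 on soybean. The groups overlapped through casein replicate 1, and Pklr fell by 0.62 (SE 0.155, adjusted p = 0.0461), with a second probe set at -0.82 (adjusted p = 0.0493). It was the single fall among 23 genes of glycolysis and its control, where 22 did not pass and the median was -0.043. After centring and scaling 4 of these 23 fell, while 287 of all 13468 genes fell, against 106 as deposited. The calls of Cyb5r3, Cyb5a, Mtarc1 and Pklr were lost in 7, 16, 8 and 14 of the 20 fits that each left out 1 array (adjusted p up to 0.0845, 0.111, 0.0961 and 0.111) and without both higher-floor arrays (0.0838, 0.104, 0.105 and 0.12). The call of Cyb5a also ended after centring (adjusted p = 0.105), after centring and scaling (0.505), and after quantile normalization (0.0818).

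Of the 135 genes in 6 lists of amino acid metabolism, its control and transport, 6 passed (4.44%, against 1.86% of all genes), and all 6 fell. Of 40 genes of amino acid breakdown 0 rose, 2 fell and 38 did not pass, and the median of 0.045 turned to -0.025 after centring and -0.078 after centring and scaling. Tat, which starts the breakdown of tyrosine and responds to glucocorticoids, read 5.03, 4.27, 4.80, 5.16 and 5.47 on casein and 4.18, 4.05, 2.48, 4.28 and 3.73 on soybean. Soybean replicate 3 was far below the others and soybean replicate 4 overlapped the casein rats, and Tat fell by 1.20 (SE 0.305, adjusted p = 0.0487). Bckdk, the kinase that switches off the breakdown of branched-chain amino acids, read 4.05, 4.13, 4.40, 4.55 and 4.19 on casein and 4.10, 3.31, 3.03, 3.27 and 3.61 on soybean. Soybean replicate 1 stayed among the casein rats, and Bckdk fell by 0.80 (SE 0.182, adjusted p = 0.0291). Hal, which breaks down histidine, differed by 0.50 (adjusted p = 0.062) and Aass, which breaks down lysine, by 0.42 (adjusted p = 0.0772). The calls of Tat and Bckdk were lost in 14 and 8 of the 20 fits that each left out 1 array (adjusted p up to 0.124 and 0.0751) and without both higher-floor arrays (0.12 and 0.0691). Of 11 genes of the urea cycle and ammonia handling 0 passed, with Ass1 at -0.38 (adjusted p = 0.208) and Otc at 0.40 (0.313), both enzymes of the cycle. Of 24 amino acid transporters 0 passed, with Slc43a1 at -0.61 (adjusted p = 0.177) and Slc1a1 at 0.28 (0.177).

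The calls among genes that respond to a shortage of amino acids were both falls. In that list of 25, Aldh1l2 and Atf5 fell, 0 rose and 23 did not pass, 15 lay below 0 and the median was -0.115. Of all 13468 genes 0.787% fell and 5593 lay below 0. Aldh1l2, a mitochondrial enzyme of folate metabolism, read 6.57, 6.41, 6.47, 6.28 and 6.68 on casein and 5.79, 6.11, 5.93, 5.54 and 6.10 on soybean and fell by 0.59 (SE 0.119, adjusted p = 0.0162) without overlap. Atf5, a transcription factor of the stress response, was at 6.81 to 7.08 on casein and 6.39 to 6.74 on soybean and fell by 0.39 (SE 0.0876, adjusted p = 0.0257). Of 19 aminoacyl-tRNA synthetases, the enzymes that charge transfer RNAs, 16 lay below 0 with a median of -0.114. Yars1, the enzyme for tyrosine, fell by 0.42 (SE 0.104, adjusted p = 0.0454), and 18 did not pass. Of 23 genes of methionine, transsulfuration and taurine, Suox, the sulfite oxidase that ends the breakdown of sulfur amino acids, fell by 0.41 (SE 0.0962, adjusted p = 0.0354), and 22 did not pass. The calls of Aldh1l2, Atf5, Yars1 and Suox were lost in 1, 6, 12 and 8 of the 20 fits that each left out 1 array (adjusted p up to 0.0573, 0.0793, 0.103 and 0.08) and without both higher-floor arrays (0.0646, 0.0902, 0.103 and 0.0901). Aldh1l2 lost its call without casein replicate 5.

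In carbohydrate metabolism, Ugp2, which makes UDP-glucose for glycogen and for glucuronic acid, read 5.70, 5.74, 5.48, 5.95 and 5.17 on casein and 7.06, 6.58, 6.27, 6.48 and 6.36 on soybean. The rats did not overlap, and Ugp2 rose 1.92-fold (SE 0.233, adjusted p = 0.043). It was the single rise among 18 genes of gluconeogenesis and glycogen, of which 17 did not pass. Slc16a7, a carrier of lactate and pyruvate, rose 1.4-fold (SE 0.119, adjusted p = 0.0425). None of 19 genes of insulin signalling passed in limma's test, 13 lay below 0, as did 5593 of all 13468 genes, and the median was -0.131. Without adjustment 6 of the 19 had a p under 0.05, as did 2319 of all 13468 genes. Irs3, an adaptor of the insulin receptor, differed by -1.54 (SE 0.484, adjusted p = 0.105) and Foxo1, a transcription factor held back by insulin, by 0.42 (adjusted p = 0.1), with other probe sets of Foxo1 at 0.03 and -0.03 (0.929 and 0.937). The calls of Ugp2 and Slc16a7 were lost in 10 and 11 of the 20 fits that each left out 1 array (adjusted p up to 0.113 and 0.108) and without both higher-floor arrays (0.123 and 0.12). Calls of Ugp2 and Slc16a7 also ended after centring (adjusted p = 0.0596 and 0.0916), after centring and scaling (0.0824 and 0.0996), and that of Slc16a7 after quantile normalization (0.0926).

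Among genes that handle foreign compounds, enzymes of oxidation and of glucuronidation were called. Cyp3a23-3a1, a drug-metabolizing P450, read 6.50, 6.55, 6.86, 6.69 and 6.45 on casein and 7.60, 7.31, 7.10, 7.87 and 7.21 on soybean. All soybean rats lay above all casein rats, a 1.75-fold rise (SE 0.162, adjusted p = 0.016). Cyp3a18, a second member of the family, read 4.98, 5.54, 6.15, 5.27 and 4.78 on casein and 6.46, 6.42, 6.14, 6.62 and 6.17 on soybean. Casein replicate 3 reached the level of the soybean rats, and Cyp3a18 rose 2.03-fold (SE 0.256, adjusted p = 0.0462). Another member, Cyp3a2, was at 6.91 on casein and 7.93 on soybean on average, a difference of 1.01 that did not pass (SE 0.314, adjusted p = 0.1). Among 22 PXR and CAR genes and targets, PXR and CAR being the receptors that turn on drug metabolism, Cyp3a23-3a1 and Cyp3a18 rose and 20 did not pass, with a median of 0.105. Of all genes 1.08% rose. After centring 1 of the 22 rose and after centring and scaling 0. The calls of Cyp3a23-3a1 and Cyp3a18 were lost in 1 and 14 of the 20 fits that each left out 1 array (adjusted p up to 0.0551 and 0.123) and without both higher-floor arrays (0.0633 and 0.134). The call of Cyp3a18 also ended after centring (adjusted p = 0.0671) and those of Cyp3a23-3a1 and Cyp3a18 after centring and scaling (0.0506 and 0.0653). Cyp3a23-3a1 lost its call without casein replicate 5. Probe sets of such closely related genes can bind each other's transcripts, which was not tested.

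PXR is known to act on the proximal promoters of rat Cyp3a genes through a repeat of a receptor half-site, and the 250 bases before the transcription start of the 3 genes are shown because these genes were measured side by side. They are given 5′ to 3′ in the direction of transcription, from RefSeq on the build GRCr8, with matches to TGAACT, 3 bases of any kind and a second TGAACT in capitals. The Cyp3a23-3a1 window is chr12:14398804-14399053 on the minus strand, the Cyp3a2 window chr12:14343858-14344107 on the minus strand and the Cyp3a18 window chr12:13994062-13994311 on the plus strand.
Cyp3a23-3a1: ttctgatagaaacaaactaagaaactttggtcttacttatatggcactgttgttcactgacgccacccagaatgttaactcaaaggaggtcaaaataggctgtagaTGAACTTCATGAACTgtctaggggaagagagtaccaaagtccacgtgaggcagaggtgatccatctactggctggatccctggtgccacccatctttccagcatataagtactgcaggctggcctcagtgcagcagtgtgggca
Cyp3a2: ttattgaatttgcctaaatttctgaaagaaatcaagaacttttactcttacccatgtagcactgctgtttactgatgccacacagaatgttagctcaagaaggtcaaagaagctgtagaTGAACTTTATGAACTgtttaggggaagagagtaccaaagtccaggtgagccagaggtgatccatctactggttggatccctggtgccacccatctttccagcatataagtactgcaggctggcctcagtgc
Cyp3a18: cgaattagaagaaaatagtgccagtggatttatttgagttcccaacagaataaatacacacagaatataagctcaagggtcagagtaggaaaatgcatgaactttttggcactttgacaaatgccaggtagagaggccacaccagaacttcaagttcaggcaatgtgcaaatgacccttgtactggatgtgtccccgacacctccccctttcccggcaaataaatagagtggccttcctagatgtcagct
Searched on both strands, this repeat was found once in Cyp3a23-3a1, as TGAACTTCATGAACT from position -144, and once in Cyp3a2, as TGAACTTTATGAACT from position -131, counted back from the transcription start. These letters were not in the Cyp3a18 window. Of 33469 rat promoters of this length 2 held the repeat (0.00598%), those of Cyp3a2 and Cyp3a23-3a1. Only this exact spelling was searched, and the element is known from rat Cyp3a promoters, so a match there could be foreseen. The share does not measure how rare repeats with other spellings are. A match describes the sequence and is no measurement of binding.

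Enzymes of glucuronidation and glutathione conjugation lay mostly above 0. Of 10 genes of glucuronidation 2 rose (1.08% of all genes rose), 8 did not pass and 8 lay above 0, as 58.5% of all genes did, and the median was 0.393. After centring, and after centring and scaling, 0 of the 10 were called, with medians of 0.323 and 0.259. Beside Ugp2, Ugt2b15, which joins glucuronic acid to steroids and phenols, read 6.03, 5.54, 5.30, 5.72 and 5.13 on casein and 6.29, 6.02, 6.18, 6.86 and 6.06 on soybean. Casein replicate 1 overlapped the soybean rats by a small amount, and Ugt2b15 rose 1.67-fold (SE 0.186, adjusted p = 0.0474). Of 18 glutathione S-transferases 15 lay above 0 with a median of 0.209, and 0 passed in limma's test. Without adjustment 6 of the 18 had a p under 0.05, as did 2319 of all 13468 genes. The nearest were Gstm5, from 1.03 ± 0.503 to 2.01 ± 0.4, at 0.98 (adjusted p = 0.0537), and Gstm3, from 2.16 ± 0.548 to 3.09 ± 0.0673, at 0.93 (adjusted p = 0.0707). Gclm, the modifier subunit of glutamate-cysteine ligase, which makes the precursor of glutathione, read 3.65, 4.09, 3.91, 3.48 and 3.91 on casein and 4.83, 5.12, 4.43, 4.46 and 4.59 on soybean. It rose 1.83-fold (SE 0.183, adjusted p = 0.0198) without overlap, and was the single call among 30 genes of glutathione synthesis and NRF2, an activator of antioxidant genes. No omission of a single array ended it, and without the 2 higher-floor arrays its adjusted p was 0.05. Sult4a1, a sulfotransferase-like protein best known from brain, went down without overlap, from 2.63, 3.2, 3.76, 3.78 and 3.40 to 1.94, 2.06, 1.18, 2.49 and 1.90. It fell by 1.44 (SE 0.211, adjusted p = 0.00174), was stable, and was the single call among 13 sulfotransferases. The call of Ugt2b15 was lost in 15 of the 20 fits that each left out 1 array (adjusted p up to 0.125) and without both higher-floor arrays (0.13). The call of Ugt2b15 also ended after centring (adjusted p = 0.0813) and after centring and scaling (0.111).

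Further oxidizing enzymes changed one by one. Aldh1b1, a mitochondrial aldehyde dehydrogenase, read 4.50, 4.15, 4.43, 4.19 and 4.89 on casein and 3.36, 3.68, 1.1, 3.06 and 3.0 on soybean. Soybean replicate 3 was far below the others, no rats overlapped, and Aldh1b1 fell by 1.59 (SE 0.402, adjusted p = 0.0474). It and Aldh1l2 were the 2 falls among 20 aldehyde and alcohol dehydrogenases, where 18 did not pass, while 0.787% of all genes fell. Cyp26b1, which breaks down retinoic acid, rose 1.94-fold (SE 0.216, adjusted p = 0.0274), with a second probe set at 0.50 (adjusted p = 0.0458). In the list of 35 other P450 genes and partners 3 rose, 1 fell and 31 did not pass, while of all genes 1.08% rose and 0.787% fell. Of 9 genes of the AhR, the receptor of dioxins and plant indoles, 0 passed, with its repressor Ahrr at 0.53 (adjusted p = 0.0797) and its target Cyp1a2 at -0.57 (0.334). The calls of Aldh1b1 and Cyp26b1 were lost in 14 and 7 of the 20 fits that each left out 1 array (adjusted p up to 0.113 and 0.0851) and without both higher-floor arrays (0.126 and 0.0813).

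Among membrane carriers, Slc17a3, an exporter of urate and organic anions, was at 3.28 to 3.99 on casein and 4.11 to 4.89 on soybean and rose 1.91-fold (SE 0.195, adjusted p = 0.0193). Abca8a, a lipid and drug transporter of the ABC family, rose 1.46-fold (SE 0.125, adjusted p = 0.0329), and Abca2, an ABC transporter of lysosomes, 1.25-fold (SE 0.0832, adjusted p = 0.0492). With Slc16a7 these were the 4 rises among 28 organic ion carriers and ABC transporters, of which 0 fell and 24 did not pass, while 1.08% of all genes rose. After centring 1 rose, after centring and scaling 1 rose and 1 fell, and after quantile normalization 2 rose. The list's median was 0.10 and turned to -0.008 after centring and scaling. The calls of Slc17a3, Abca8a and Abca2 were lost in 2, 6 and 17 of the 20 fits that each left out 1 array (adjusted p up to 0.0628, 0.0883 and 0.116) and without both higher-floor arrays (0.0691, 0.0991 and 0.118). Calls of Abca8a and Abca2 also ended after centring (adjusted p = 0.0611 and 0.132), after centring and scaling (0.0909 and 0.123), and that of Abca2 after quantile normalization (0.121). Slc17a3 lost its call without casein replicate 2 or 5.

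The metallothioneins, small proteins that bind zinc and copper, rose with wide spread. Mt1 read 3.42, 2.75, 2.69, 3.0 and 3.02 on casein and 3.63, 4.05, 4.71, 3.66 and 4.04 on soybean. The lowest soybean rat lay above the highest casein rat, and Mt1 rose 2.06-fold (SE 0.267, adjusted p = 0.0492). Mt2A read 3.0, 3.48, 2.88, 3.29 and 2.40 on casein and 3.61, 4.74, 7.78, 4.39 and 4.91 on soybean. Soybean replicate 3 was far above all others for Mt2A and the highest for Mt1, and it was also the lowest rat for Tat, Aldh1b1 and Bckdk. Mt2A rose 4.21-fold (SE 0.527, adjusted p = 0.0486), with an SD of 1.59 among the soybean rats. These were the 2 rises among 19 genes of metallothioneins, zinc and copper, of which 0 fell and 17 did not pass, while 1.08% of all genes rose. The calls of Mt1 and Mt2A were lost in 15 and 16 of the 20 fits that each left out 1 array (adjusted p up to 0.118 and 0.117) and without both higher-floor arrays (0.0953 and 0.121). Calls of Mt1 and Mt2A also ended after centring (adjusted p = 0.066 and 0.0553), that of Mt1 after centring and scaling (0.0614), and those of Mt1 and Mt2A after quantile normalization (0.065 and 0.0532).

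Metallothionein genes are known to be switched on through metal response elements in their promoters, and since Mt1 and Mt2A rose in the same rats, the 250 bases before each start are shown, 5′ to 3′, from RefSeq on GRCr8. The Mt1 window is chr19:10832976-10833225 and the Mt2A window chr19:10838709-10838958, both on the minus strand. Capitals mark matches to TGCACNC or TGCGCNC, the core of the element, on either strand.
Mt1: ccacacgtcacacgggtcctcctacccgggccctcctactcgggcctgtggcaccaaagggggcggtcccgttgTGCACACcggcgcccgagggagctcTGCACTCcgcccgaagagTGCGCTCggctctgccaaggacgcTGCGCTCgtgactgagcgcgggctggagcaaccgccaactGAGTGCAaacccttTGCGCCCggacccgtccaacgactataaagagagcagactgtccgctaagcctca
Mt2A: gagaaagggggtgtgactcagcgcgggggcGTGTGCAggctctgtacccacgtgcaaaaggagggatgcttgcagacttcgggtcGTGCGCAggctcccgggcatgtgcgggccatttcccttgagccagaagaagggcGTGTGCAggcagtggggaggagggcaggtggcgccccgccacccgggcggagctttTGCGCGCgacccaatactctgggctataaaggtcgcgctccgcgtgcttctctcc
The core was found 6 times in Mt1 and 4 times in Mt2A, none of them overlapping. Of 33469 rat promoters 6883 held at least 1 match (20.6%), 89 held at least 4 (0.266%) and 9 held at least 6 (0.0269%). Metal contents of diets and livers were not given in the sources used here.

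Besides Car3, 2 more carbonic anhydrases rose, a family that converts carbon dioxide and bicarbonate. Car8, a member without catalytic activity that binds a calcium channel of the endoplasmic reticulum, read 4.19, 4.11, 3.92, 4.02 and 4.19 on casein and 4.58, 4.80, 4.69, 4.52 and 4.85 on soybean. The groups were clearly apart, and Car8 rose 1.52-fold (SE 0.132, adjusted p = 0.0256). Car5b, a mitochondrial member, read 3.54, 2.98, 3.30, 3.08 and 3.23 on casein and 3.75, 3.55, 3.80, 3.65 and 3.61 on soybean and rose 1.36-fold (SE 0.104, adjusted p = 0.0346), with its highest casein rat just below its lowest soybean rat and a second probe set at 0.23 (adjusted p = 0.427). Of 13 carbonic anhydrases 3 rose, 0 fell, 10 did not pass and 11 lay above 0, and the median was 0.261 against 0.045 for all genes. Of all genes 1.08% rose. After centring 2 of the 13 rose, and after centring and scaling Car3 alone. The rats of the 2 diets did not overlap in 5 of the 13, and in 4.97% of all genes, and those not called were Car11 at 0.36 (adjusted p = 0.0666) and Car14 at 0.49 (0.0781). The calls of Car8 and Car5b were lost in 7 and 8 of the 20 fits that each left out 1 array (adjusted p up to 0.0654 and 0.0905) and without both higher-floor arrays (0.0633 and 0.0869). The call of Car5b also ended after centring (adjusted p = 0.0646), those of Car8 and Car5b after centring and scaling (0.0609 and 0.0763), and that of Car5b after quantile normalization (0.0664). Of 25 genes of iron and heme and 20 of selenium and peroxides 0 passed, with Hfe, a regulator of iron uptake, at 0.35 (adjusted p = 0.138), Alad, of heme synthesis, at 0.24 (0.181), Msrb1, a selenoprotein, at 0.27 (0.0844) and Prdx6, a peroxiredoxin, at -0.20 (0.119).

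**Figure D3:**
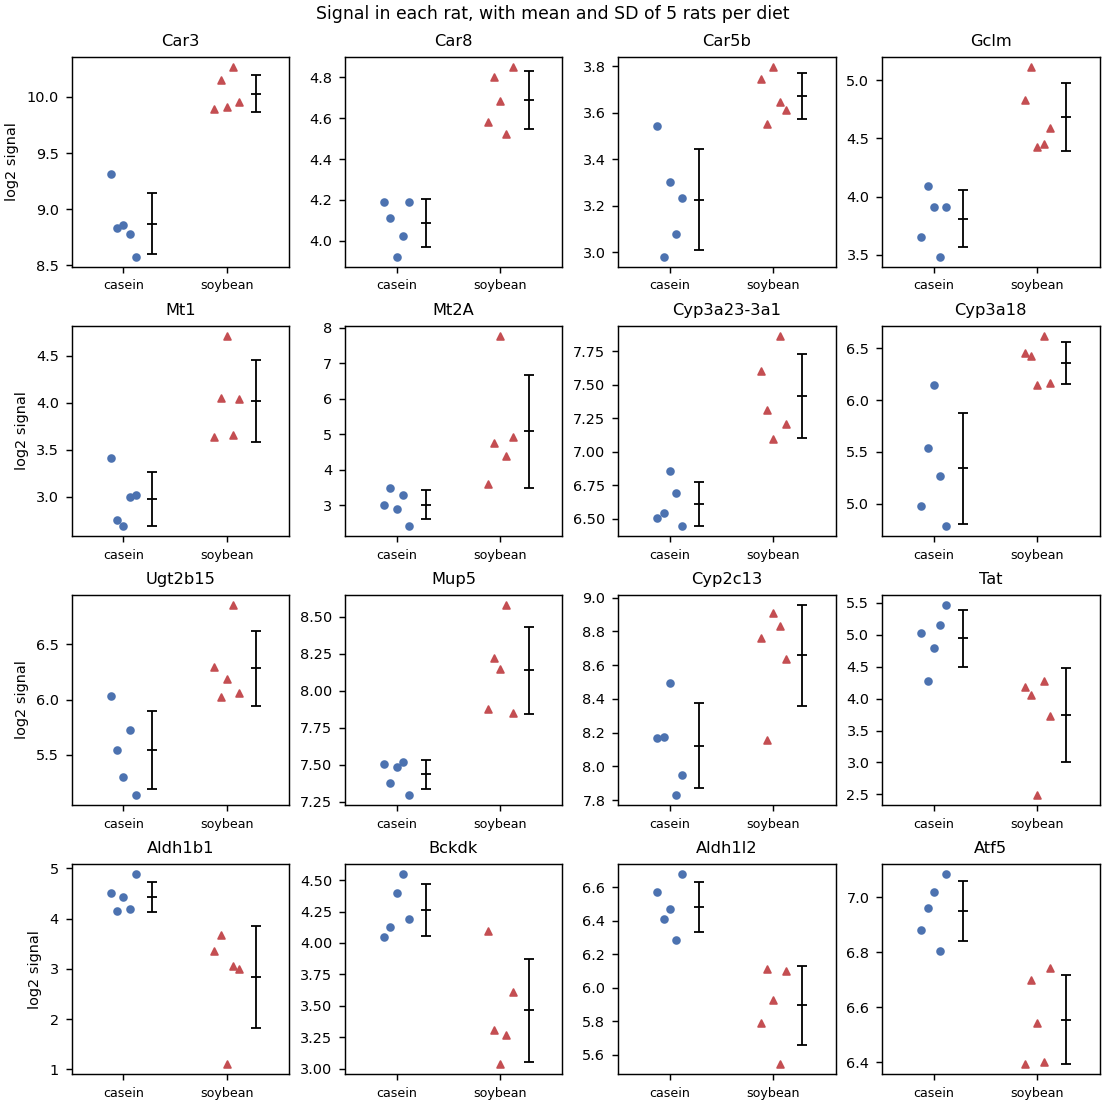
Log2 signal of each rat (points) for 16 genes, with the mean and SD of 5 rats beside each diet; circles are casein, triangles conventional soybean, and each panel has its own vertical axis, which does not start at 0. Car3, Car8 and Mup5 show groups that are clearly apart, while soybean replicate 3 stands alone at 7.78 for Mt2A, 2.48 for Tat and 1.1 for Aldh1b1.

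Genes that are higher in the liver of male than of female rats under the male pattern of growth hormone lay mostly above 0. Of 14 such genes 3 rose, 0 fell, 11 did not pass and 12 lay above 0, and the median was 0.375, while of all genes 1.08% rose and 58.5% lay above 0. After centring 1 of the 14 rose, and after centring and scaling 0. Cyp2c13, a P450 of male rat liver, read 8.17, 8.18, 8.49, 7.83 and 7.95 on casein and 8.76, 8.15, 8.91, 8.83 and 8.64 on soybean. Soybean replicate 2 lay among the casein rats, and Cyp2c13 rose 1.45-fold (SE 0.13, adjusted p = 0.0394). Mup5 and Cyp3a18 were the other 2 rises. As with the Cyp3a genes, probe sets of Mup5 and Cyp2c13 may bind transcripts of related genes, which was not tested. Hsd11b1, which activates corticosterone, differed by 0.61 (adjusted p = 0.0673), Hsd3b5, a steroid dehydrogenase, by 0.56 (0.0622), and Cyp2c11, the main P450 of the male liver, by -0.03 (0.918). Of 14 female-predominant genes 0 passed and 8 lay below 0, with Fmo1 at 1.12 (adjusted p = 0.115) and Cyp17a1 at -1.05 (0.115), the former an enzyme that oxidizes nitrogen and sulfur compounds and the latter of steroid synthesis. Of 21 genes of the growth hormone and IGF axis 0 passed, with Igf1 at 0.21 (adjusted p = 0.331) and its receptor Igf1r at -0.43 (0.182), for which a dimmer probe set was at 0.25 (0.349). The call of Cyp2c13 was lost in 8 of the 20 fits that each left out 1 array (adjusted p up to 0.102) and without both higher-floor arrays (0.107). The call of Cyp2c13 also ended after centring (adjusted p = 0.0825) and after centring and scaling (0.186).

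None of 19 estrogen receptors and estrogen-responsive liver genes passed in limma's test. Without adjustment 6 of the 19 had a p under 0.05, as did 2319 of all 13468 genes. The nearest was Tff3, a trefoil peptide, at 0.37 (adjusted p = 0.0788). Of 14 glucocorticoid-responsive genes Mt2A rose and Tat fell, while of all genes 1.08% rose and 0.787% fell. Of 13 thyroid hormone genes 1 fell, Me1, which makes NADPH for fat synthesis, while Gpd2, a mitochondrial glycerol phosphate dehydrogenase, was at -0.43 (adjusted p = 0.154) and Ttr, a carrier of thyroid hormone, at -0.13 (0.372). Tef, a clock-controlled transcription factor, was at 3.73 to 4.27 on casein and 4.37 to 4.71 on soybean and rose 1.49-fold (SE 0.141, adjusted p = 0.043), with other probe sets at 0.71 and 0.35 (adjusted p = 0.0665 and 0.206). It was the single rise among 22 clock genes, where 15 lay above 0, as 58.5% of all genes did, and the median was 0.155. The core genes Per1 and Per2 were at 0.17 and 0.14 (adjusted p = 0.512 and 0.573). The call of Tef was lost in 9 of the 20 fits that each left out 1 array (adjusted p up to 0.1) and without both higher-floor arrays (0.108). The call of Tef also ended after centring (adjusted p = 0.0652), after centring and scaling (0.0833), and after quantile normalization (0.0612). Of 43 liver transcription factors and nuclear receptors 0 passed (4 had an unadjusted p under 0.05), with Nr1h2, a sensor of oxysterols, at -0.44 (adjusted p = 0.165) and Nr4a1, an immediate early gene, at 0.44 (0.167).

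Of 25 acute phase proteins 0 were called, and 5 had an unadjusted p under 0.05 in limma's test, as did 2319 of all 13468 genes. Among the 25 were A2m, a protease trap, at 1.6 (SE 0.493, adjusted p = 0.0991) and Cd14, the endotoxin co-receptor, at 1.23 (0.151). The rats did not overlap for A2m, at 0.85 to 1.92 on casein and 2.42 to 3.65 on soybean, and with only the 10 compared arrays its adjusted p was 0.0123. Of 35 complement and coagulation genes 0 were called, with Mbl1, a mannose-binding lectin, at 0.34 (adjusted p = 0.0726) and clotting factor F9 at 0.46 (0.118). The interferon response had 27 of 36 genes below 0, a median of -0.055 and 0 calls, with Stat2 at -0.37 (adjusted p = 0.187) and Ifi35 at 0.20 (0.245). Of all 13468 genes 5593 lay below 0. Of 25 genes of inflammatory signalling 0 were called, with the chemokine Cxcl12 at 0.40 (adjusted p = 0.136) and the adaptor Myd88 at -0.43 (0.158). Of 20 genes of antigen presentation 0 were called, with RT1-N3 at 0.60 (adjusted p = 0.077), and B2m at 0.18 (0.256), which turned to -0.02 after centring and scaling.

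Markers of lymphocytes lay mostly above 0. Of 17, 2 rose, 0 fell and 14 lay above 0, while 1.08% of all genes rose and 58.5% lay above 0. The median of the 17 was 0.23. The mean of the list was at 2.361 to 2.622 in casein rats and 2.694 to 3.052 in soybean rats, without overlap. The mean of all genes was at 3.048 to 3.102 in casein rats and 3.108 to 3.144 in soybean rats, likewise without overlap. Under each of the other scalings 1 of the 17 rose. Cd8b, a chain of the CD8 co-receptor of cytotoxic T cells, read 3.63, 3.69, 3.62, 3.68 and 4.05 on casein and 4.55, 4.32, 4.09, 4.20 and 4.45 on soybean. Casein replicate 5 was the highest of its group and just below the lowest soybean rat, and Cd8b rose 1.5-fold (SE 0.125, adjusted p = 0.0221). Cd5, a surface protein of T cells that was dim on casein, rose by 0.57 (SE 0.144, adjusted p = 0.0492), while Cd3e, a chain of the T cell receptor complex, was at 0.41 (adjusted p = 0.247). Cd8b lost its call in 4 of the 20 fits that each left out 1 array, at up to 0.0557, and kept it without the 2 higher-floor arrays (0.0247). The call of Cd5 was lost in 16 of the 20 fits that each left out 1 array (adjusted p up to 0.127) and without both higher-floor arrays (0.0691). The call of Cd5 also ended after centring (adjusted p = 0.0754), after centring and scaling (0.0599), and after quantile normalization (0.0618). Of the 17 markers, 7 lay below the array's median on all 10 arrays, and their part in the other results was not tested.

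Other cell types showed single changes, while 1.08% of all genes rose and 0.787% fell. Epcam, an adhesion protein of bile duct cells, read 2.59, 3.19, 2.54, 2.92 and 2.86 on casein and 1.97, 2.11, 2.53, 2.21 and 1.72 on soybean. It fell by 0.71 (SE 0.158, adjusted p = 0.0257), while the bile duct keratin Krt19 was at 1.01 (adjusted p = 0.0868) and the mean of all 8 bile duct markers was 2.194 to 2.537 on casein and 2.442 to 2.616 on soybean. Camp, an antimicrobial peptide of neutrophils that was dim on casein, rose by 0.99 (SE 0.254, adjusted p = 0.0492), with S100a8 and S100a9, 2 abundant neutrophil genes, at -0.00 and -0.20 (adjusted p = 0.995 and 0.762). Cela2a, a pancreatic elastase that was also dim on casein, rose by 0.69 (SE 0.176, adjusted p = 0.0493) and was the single call among 20 markers of pancreas, fat and muscle. The calls of Epcam, Camp and Cela2a were lost in 5, 15 and 17 of the 20 fits that each left out 1 array (adjusted p up to 0.0723, 0.127 and 0.127) and without both higher-floor arrays (0.0691, 0.12 and 0.113). Calls of Camp and Cela2a also ended after centring (adjusted p = 0.0653 and 0.0666), that of Camp after centring and scaling (0.0586), and those of Camp and Cela2a after quantile normalization (0.0697 and 0.051). Of 13 macrophage markers 0 passed and 9 lay below 0, with a median of -0.134, Aif1 at -0.30 (adjusted p = 0.218) and Mrc1 at -0.17 (0.403). Of all 13468 genes 5593 lay below 0. Of 12 endothelial, 14 stellate and fibroblast and 7 red blood cell markers 0 passed, with Fcgr2b at 0.23 (adjusted p = 0.401), Emcn at 0.23 (0.384), Des at 0.45 (0.119), Col1a2 at -0.27 (0.381), Rhag at 0.47 (0.428) and Epb42 at 0.28 (0.321). Of 14 pericentral genes 0 passed, with Gulo at -0.43 (adjusted p = 0.134) and Lect2 at 0.28 (0.221), and of 16 periportal genes Aldh1b1 alone fell.

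Chaperones, proteasome subunits and genes of respiration lay mostly below 0, against 5593 of all 13468 genes, and none of them passed with the values as deposited. Of all 13468 genes, 2319 had an unadjusted p under 0.05 in limma's test. Of 20 heat shock genes and chaperones 19 lay below 0 and the median was -0.211 against 0.045 for all genes, with 0 called in limma's test (7 with an unadjusted p under 0.05) and 4 whose rats did not overlap. The median was -0.281, -0.321 and -0.283 after centring, after centring and scaling and after quantile normalization. Hspa4l, a co-chaperone of the HSP110 family, went from 1.37 ± 0.146 to 0.37 ± 0.356, a difference of -1.0 (adjusted p = 0.0843). It was dim, and its soybean mean lay below the floor of 0.45 on casein replicate 5. Dnajb1, an HSP40 protein, went from 4.15 ± 0.157 to 3.79 ± 0.194 (-0.36, adjusted p = 0.104), and the abundant Hsp90ab1 was at -0.28 (0.181). Of 37 proteasome subunits and factors 31 lay below 0 with a median of -0.103 and 0 calls (7 with an unadjusted p under 0.05), with Psmd3 at -0.35 (adjusted p = 0.0555) and Psmb7 at -0.32 (0.0833). Of 87 subunits of the respiratory chain and ATP synthase 66 lay below 0 with a median of -0.067 and 0 calls (6 with an unadjusted p under 0.05), with Cox8a at -0.26 (adjusted p = 0.0664) and Atp5f1b at -0.22 (0.0991). Under the other scalings some of these passed, all lower on soybean. The proteasome list held 2 falls after centring, 3 after centring and scaling and 2 after quantile normalization, the respiratory chain 2, 2 and 1, and the chaperones 0, 1 and 1. Of all 13468 genes 106 fell as deposited and 201, 287 and 204 under these scalings. After centring and scaling the adjusted p was 0.0309 for Dnajb1, 0.00941 for Psmd3, 0.0206 for Psmb7, 0.0144 for Cox8a and 0.0395 for Atp5f1b.

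Of 45 cytosolic ribosomal proteins 0 passed and the median was 0.03, turning to -0.04 after centring, with Rpl7l1 at -0.26 (adjusted p = 0.127) and Rps29 at 0.13 (0.344), the latter turning to -0.05 after centring and scaling. Of 28 genes of endoplasmic reticulum stress 0 passed, with Sel1l, of protein removal there, at 0.28 (adjusted p = 0.127) and Pdia4, a folding enzyme, at -0.34 (0.163). Of 14 genes of peroxisome assembly 0 passed, with Pex11a, which drives peroxisome division, at -0.67 (adjusted p = 0.0716) and Pex6 at -0.37 (0.115). The median of these 14 was -0.10, and after centring and scaling Pex11a and Pex6 passed (adjusted p = 0.0374 and 0.0427). Ctsd, a protease of lysosomes, was at 5.02 to 5.23 on casein and 4.54 to 4.79 on soybean and fell by 0.44 (SE 0.0983, adjusted p = 0.0257), the single call among 30 genes of autophagy and lysosomes. After centring and scaling 3 of these 30 fell, while 287 of all 13468 genes fell, against 106 as deposited. Kif11, a motor of the mitotic spindle, was at 1.25 to 2.21 on casein and 2.45 to 3.01 on soybean and rose 1.91-fold (SE 0.223, adjusted p = 0.0378), the single call among 35 genes of the cell cycle. The calls of Ctsd and Kif11 were lost in 6 and 6 of the 20 fits that each left out 1 array (adjusted p up to 0.0644 and 0.102) and without both higher-floor arrays (0.0601 and 0.111).

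Over the 61 lists outside fat and sterol synthesis, 16 held rises without falls, 15 held falls without rises, 3 held both and 27 held no call. After centring these counts were 8, 18, 3 and 32, after centring and scaling 7, 26, 5 and 23, and after quantile normalization 11, 20, 3 and 27. Besides the genes given above, Prdx6, Gulo and Rpl7l1 passed after centring and scaling (adjusted p = 0.0284, 0.0319 and 0.0446). As deposited, 50 of the 1274 measured genes of the lists passed (3.92%), against 1.86% of all genes, and the lists were drawn up with earlier results of these data known. The median was below 0 under every scaling in 23 lists and above 0 in 10, and its sign changed with centring, scaling or quantile normalization in the other 28. The highest medians of these lists were those of glucuronidation and of male-predominant genes, and the lowest those of heat shock genes and of fatty acid binding.

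**Figure D4:**
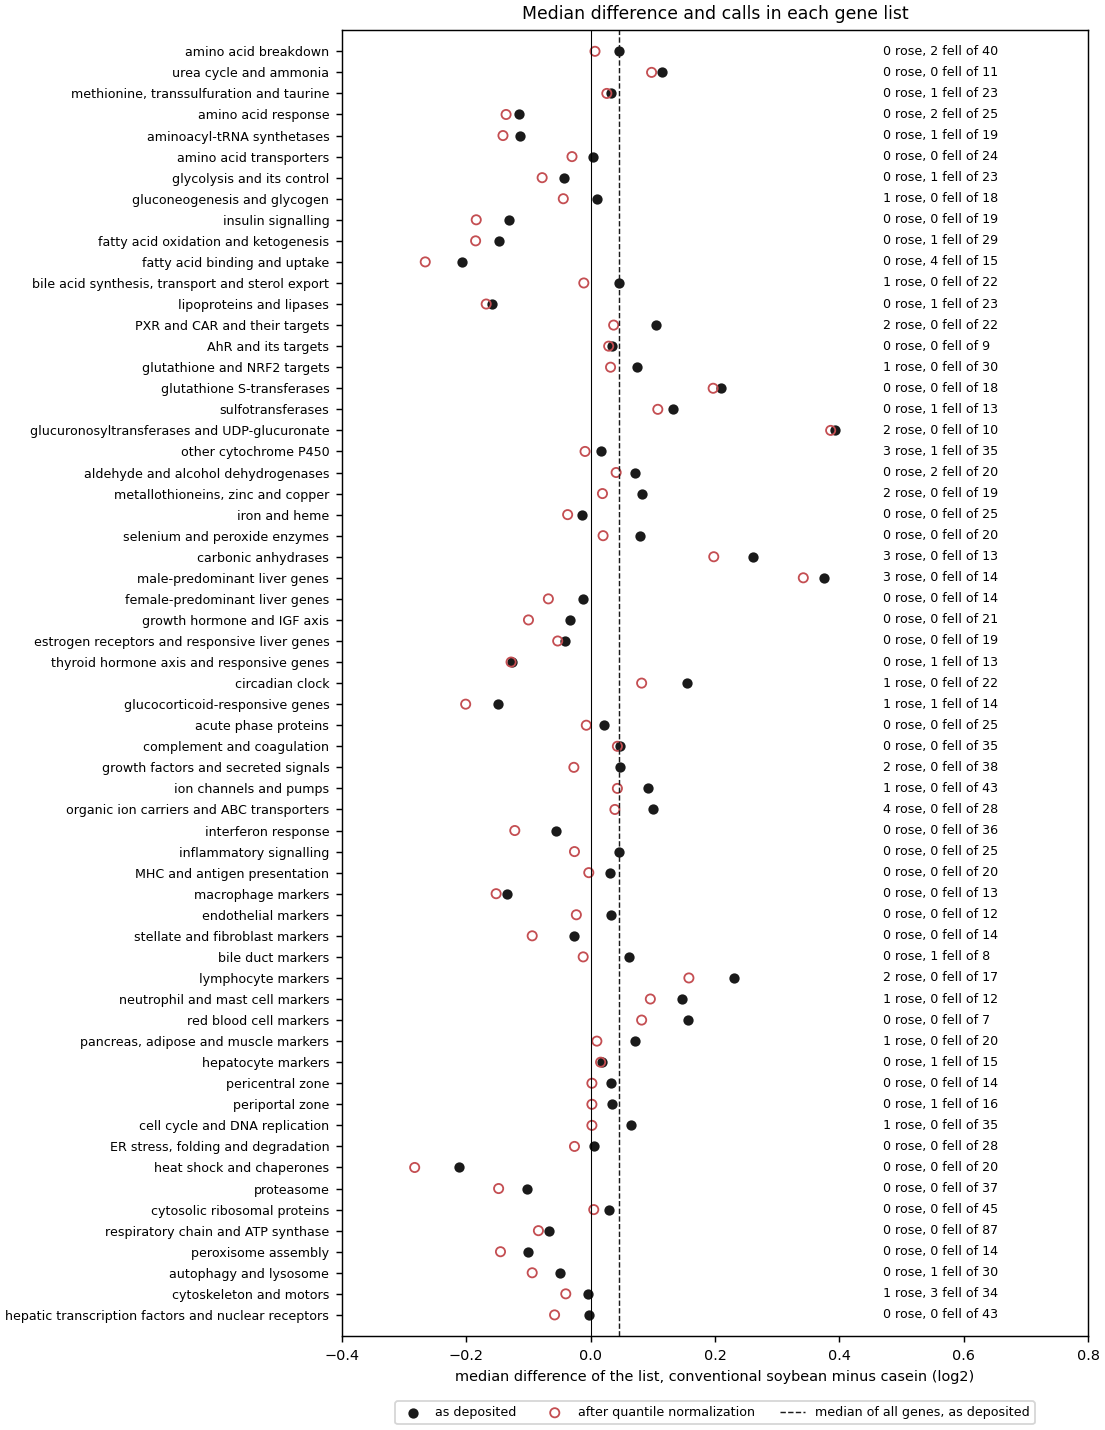
Median log2 difference, conventional soybean minus casein, of each of the lists as deposited (black) and after quantile normalization (open red), with the counts of genes that rose and fell at the right and the median of all genes, 0.045, dashed. Medians run from -0.211 for heat shock genes to 0.393 for glucuronidation, and the sign of the median changes with centring, scaling or quantile normalization in 28 of the 61 lists.

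The same rats allow a comparison with the 1:1 high-isoflavone diet, which held as large a share of soybean protein from another cultivar. Between these diets 21 probe sets differed (0.0758%) and 14 genes (0.104%), all 14 higher on the conventional cultivar. They include subunits of cytochrome oxidase, Cox7b2, Cox7b and Cox6c, the RNA polymerase subunit Polr2k and the ribosomal protein Rpl26. Cox7b was at 7.57 ± 0.121 on casein, 7.34 ± 0.147 on conventional and 6.30 on high-isoflavone soybean on average, a difference between the soybean diets of 1.04 (SE 0.143, adjusted p = 0.00279). None of the 14 was called between conventional soybean and casein, where their differences were between -0.34 for Sub1, a transcription coactivator, and 0.11 for Rbis, a ribosome assembly factor (adjusted p of 0.364 and 0.74).

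Of the 47 stable genes 0 differed between the soybean diets in limma's test, while 12 had an unadjusted p under 0.05. Their differences lay between -0.41 and 0.67, and the 95% interval of a difference, before adjustment, reached 0.2 to 0.75 to each side, with a median of 0.29. Differences between the cultivars smaller than this could not be seen. A call needed an adjusted p under 0.05, so larger differences could also go uncalled, as those of the 12 did. Gdf11 differed by 0.49 (95% interval -0.26 to 1.25), Car3 by 0.13 (-0.21 to 0.48) and Eif2ak4 by -0.08 (-0.34 to 0.18). The intervals of Slc26a2, at 0.67 (0.15 to 1.19), and Lrp10, at -0.41 (-0.61 to -0.21), did not include 0 before adjustment. Against casein, 36 of the 47 were called on the 1:1 high-isoflavone diet and 4 on the 3:1 diet. These comparisons share the casein rats from which the 47 were chosen to differ, so part of such a count is built in. The share of all genes called in them was not counted, so no likeness of the diets is read from these counts. Set side by side, Fabp2 fell by 1.43 on conventional soybean and differed by -1.70 on the 1:1 diet, and Calcrl was at 0.79 and 0.41.

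**Figure D5:**
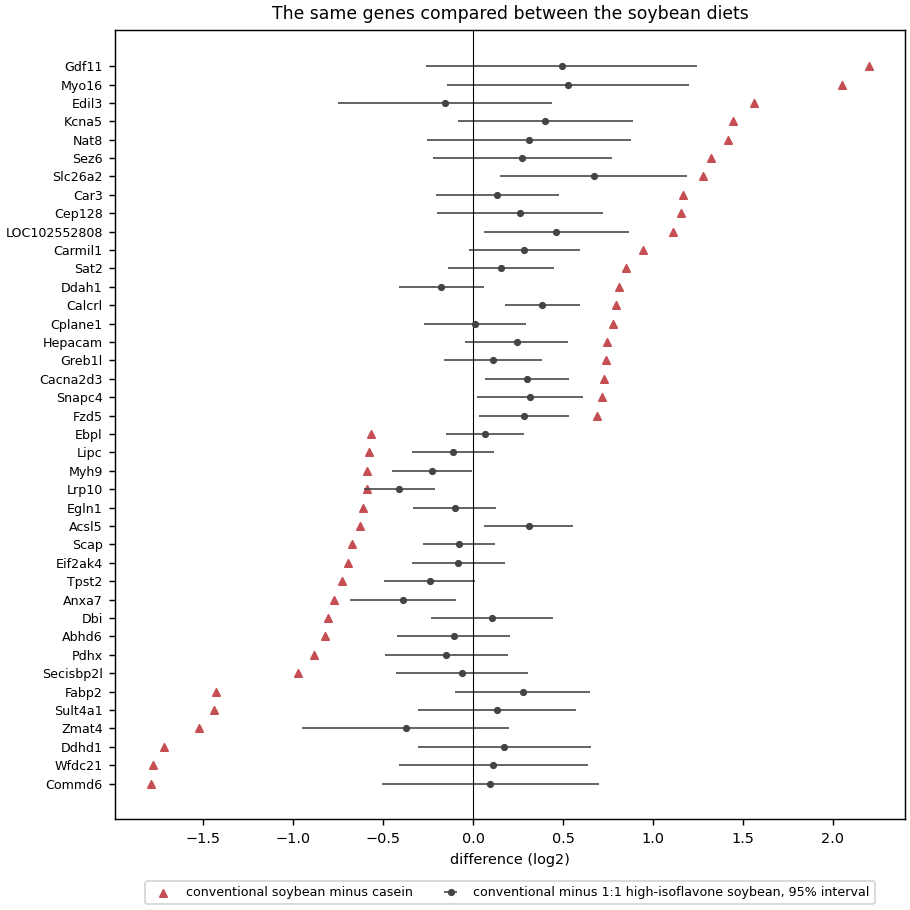
For the 40 named stable genes, triangles give the log2 difference of conventional soybean minus casein, and circles with 95% intervals that of conventional minus 1:1 high-isoflavone soybean. The circles lie between -0.41 and 0.67, and for most genes the interval includes 0.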

How the data were processed

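Liver RNA of 20 rats, 5 per diet, was measured on Affymetrix rat arrays. The authors deposited 1 table of log10 values, normalized with the SuperNORM service per the labels. Its version and how probes were summarized were not given in the sources used here. No label states the log base, which was inferred from spike-in controls (slope 0.997, SD 0.0242 over 20 arrays). Deposited log10 values were multiplied by 3.3219 to give log2, with no further normalization. Of 31099 probe sets, 57 controls and 3342 without values (2 in both) were left out. Per the platform annotation 19157 of the 27702 tested had 1 symbol, 394 several and 8151 none listed. Each gene was read from 1 probe set, that of highest mean over 20 arrays; others are given for named genes that were called, and for other named genes where they differ in sign. All deposited sample columns were used.

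Differences were tested in R 4.3.3 by limma 3.58.1 (a mean for each diet, all 20 arrays, eBayes with trend, two-sided), with Benjamini-Hochberg adjustment over all probe sets and a threshold of 0.05; each SE is from this fit on the log2 scale. The code was tested on simulated data. Depth does not apply to arrays; the number of rats limits the precision. Titles were matched to diets by their wording. Named were the 20 largest stable rises and falls, the 10 brightest called genes in each direction and, for each list, its called genes or up to 2 members of smallest p. Some genes outside this rule were picked by hand for comparison. These include Fabp1, Acsl1, Hal, Aass, Cyp3a2, Hsd11b1, Hsd3b5, Cyp2c11, Car11 and Car14. Cd3e, Krt19, S100a8, S100a9, Per1, Per2, Hsp90ab1 and Me1 were likewise picked by hand. Members and lists were chosen with earlier results of these data known. Alternatives were centring, scaling, quantile normalization, array weights, no trend, only the compared arrays, a filter on dim probe sets, the mean of a gene's probe sets, the replicate number as a block, and omissions of arrays. Promoters were matched by gene identifier in a RefSeq table of GRCr8. A build for the arrays was not given in the sources used here.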

Additional observations from a re-analysis of the deposited data

Results flagged for a closer look

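Among the called genes that were named, 172 groups of 5 rats were searched for a rat far from the other 4, and 10 groups held one, where chance flags about 1 in 20 groups. On casein, replicate 1 was low for Commd6 (3.65, the others 5.07 to 5.40), Pdhx (3.15, the others 3.84 to 4.09), Dbi (9.01, the others 9.12 to 9.16) and Scap (4.15, the others 4.34 to 4.37). Casein replicate 2 was low for Slc26a2 (0.10, the others 0.87 to 1.04) and high for Ang (8.38, the others 7.98 to 8.08). Casein replicate 4 was high for Eif2ak4 (3.35, the others 3.23 to 3.25), and casein replicate 5 for Cd8b (4.05, the others 3.62 to 3.69). On conventional soybean, replicate 2 was low for Lrp10 (3.56, the others 3.89 to 4.01) and replicate 3 for Aldh1b1 (1.1, the others 3.0 to 3.68).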

How the results depend on the processing

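The count of 453 probe sets between conventional soybean and casein was 114 without the 2 higher-floor arrays and 120 to 499 when a single array was left out. Omitting casein replicate 2 gave 190, casein replicate 3 gave 225, 4 gave 282 and 5 gave 120, and omitting conventional soybean replicate 2 gave 294, 3 gave 200, 4 gave 283 and 5 gave 182. The 50 called list genes became 30 without the trend, 12 without the higher-floor arrays and 14 to 52 without a single array. The 21 probe sets between the soybean diets became 13 after centring and scaling, 12 with only the compared arrays, 13 without number 1 of all 4 diets and 11 to 31 without a single array. The cause was not tested, beyond the smaller number of arrays. The replicate numbers were not taken to pair the rats. Same-numbered deviations correlated at 0.205, 0.138, -0.163, 0.0912 and 0.0582 between the compared diets, and over all 6 pairs of diets at 0.203 to 0.401 for number 1 and -0.163 to 0.221 for the others; with the replicate block the counts were 591, 23 and 58, and 5 of 86 named calls ended. Of these 86 calls, 40 were stable, and none of the 40 ended with only the compared arrays, without the trend or without number 1. The 46 others included 44 that ended without the higher-floor arrays, 26 without the trend, 22 after centring and scaling, 21 with only the compared arrays, 21 without number 1 of all 4 diets, 20 after centring and 11 after quantile normalization. No named call changed sign; of uncalled genes, B2m turned to -0.0223 and Rps29 to -0.0518 after centring and scaling. No detection calls were used, so which dim genes lie above background is not known.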
